A study of Rattus norvegicus with 32 samples.

Results

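The heat-shock chaperones described here are 10 gene symbols, Hspa8, Hsp90aa1, Hsp90ab1, Hsph1, Hspb1, Hspd1, Hspe1, Dnajb1, Bag3 and Hsf1, chosen by name from the 32623 genes measured in liver sinusoidal endothelial cells (LSECs) of rats. Hspa8 was listed under 2 gene identifiers, so the symbols made 11 genes. Heat-shock proteins bind unfolded or newly made proteins, keep them from clumping and help them fold. The HSP70 family (Hspa8, and Hsph1 as a nucleotide exchange factor) works with J-domain partners such as Dnajb1 and with Bag3, HSP90 (Hsp90aa1, Hsp90ab1) matures kinases and receptors, Hspb1 is a small heat-shock protein that holds unfolded clients, and Hspd1 with its lid Hspe1 forms the folding chamber of mitochondria. Heat-shock factor 1, encoded by Hsf1, is the transcription factor that drives the inducible members when proteins unfold. It is kept inactive by chaperones and is controlled largely after translation, so its mRNA is not a measure of its activity. LSECs, the fenestrated lining of the liver capillaries, have to be freed by enzyme digestion before sequencing, a step known to induce stress genes.

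Poly(A) RNA of LSECs was sequenced in 32 libraries. In the carbon tetrachloride (CCl4) experiment, 6 libraries came from untreated Wistar Han rats (healthy), 5 from rats after 2 weeks of CCl4 inhalation (acute), 5 after 6 weeks (fibrosis) and 6 after 12 to 14 weeks (cirrhosis, labelled only as CCl4-treated rats). The methods describe male rats, phenobarbital in the drinking water of the CCl4 model, and cells purified on a density gradient some days after the last dose, and no age is given in the labels used here. The thioacetamide (TAA) experiment holds 5 libraries labelled control and 5 labelled TAA control. The labels do not settle which of these groups received TAA, and they give Wistar Han where the series text gives Sprague-Dawley, so the values are given under the labels alone, as TAA control minus control.

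Each library held between 25646531 and 46464289 expected counts, that is, reads assigned to genes with shared reads split by estimate. Levels below are CPM, each count relative to its library's total after scaling by the trimmed mean of M values (TMM), separately in the 22 CCl4 and the 10 TAA libraries, and they are not comparable between genes because lengths were not used. The LSEC markers (9 of 10 found, Stab2, Lyve1 and Cdh5 among those sought) summed to 13400 to 26100 CPM in healthy and 3670 to 4450 in acute libraries. Their sums were 2630 to 3480 CPM in fibrosis and 14400 to 18500 in cirrhosis libraries. No marker of the list was at 0 throughout a group. The sum does not stand for each marker, as values of Cdh5 and Lyve1 further on show. The 14 immediate-early stress genes (Fos, Jun, Egr1 and the like, with no heat-shock gene among them) summed to 48600 to 81700 CPM in healthy, 1530 to 3200 in acute, 2480 to 3820 in fibrosis and 23100 to 51600 in cirrhosis libraries, 14300 to 29700 in those labelled control and 50000 to 72900 in those labelled TAA control. In bulk samples, fewer cells of a type and less RNA per cell cannot be told apart. The labels name no batch, so any batch and the groups cannot be told apart, and the p-values measure the spread between these libraries.

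Promoter sequence was available for 8 of the 10 symbols in RefSeq's windows of 300 bases (250 before to 50 after each start, build GRCr8, not the Rnor_6.0 build to which the reads were mapped). Hsp90aa1 and Hsf1 had no window and were not searched. Heat-shock factors bind alternating GAA and TTC units. Both strands were searched for 2 units (GAANNTTC or TTCNNGAA) and for 3 units (GAANNTTCNNGAA or TTCNNGAANNTTC), the longer motif containing the shorter one. The 2-unit letters were in the windows of 7 of the 8 symbols, all but Hsp90ab1, and in 15.9% of all 33469 promoter windows. The 3-unit letters were in 4 of the 8, Hspa8, Hsph1, Hspd1 and Hspe1, and in 0.798% of all windows. Hspd1 and Hspe1 are neighbours read in opposite directions, and their windows share 211 bases, so their match is the same stretch, 65 bases before the Hspe1 start and 242 before the Hspd1 start. The windows below were chosen among those with a match, as their genes carry changes described next, and every matching letter is in capitals. Hsp90ab1, which was called higher in acute and fibrosis, had 0 matches, as had the window of Hspa1a, the inducible HSP70 gene described further on, which is no member and fell steeply in acute. A match is a description of the letters, not a proven site. The lack of a match in a window of 300 bases at an annotated start does not show that a gene has no such site.
Hspe1, chr9:64084077-64084376, plus strand: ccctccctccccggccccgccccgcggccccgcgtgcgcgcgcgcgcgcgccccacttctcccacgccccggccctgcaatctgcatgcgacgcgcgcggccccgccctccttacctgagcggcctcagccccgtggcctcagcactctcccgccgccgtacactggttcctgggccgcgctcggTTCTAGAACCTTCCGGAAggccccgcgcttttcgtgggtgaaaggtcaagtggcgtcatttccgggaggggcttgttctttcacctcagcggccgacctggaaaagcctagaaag
Hspa8, chr8:50080264-50080563, plus strand: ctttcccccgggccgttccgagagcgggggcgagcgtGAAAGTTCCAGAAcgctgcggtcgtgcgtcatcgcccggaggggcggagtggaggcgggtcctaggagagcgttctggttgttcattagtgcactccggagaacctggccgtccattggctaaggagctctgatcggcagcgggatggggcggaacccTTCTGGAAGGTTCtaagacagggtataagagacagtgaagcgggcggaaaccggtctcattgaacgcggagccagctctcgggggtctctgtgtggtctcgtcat
Hsph1, chr12:10427118-10427417, plus strand: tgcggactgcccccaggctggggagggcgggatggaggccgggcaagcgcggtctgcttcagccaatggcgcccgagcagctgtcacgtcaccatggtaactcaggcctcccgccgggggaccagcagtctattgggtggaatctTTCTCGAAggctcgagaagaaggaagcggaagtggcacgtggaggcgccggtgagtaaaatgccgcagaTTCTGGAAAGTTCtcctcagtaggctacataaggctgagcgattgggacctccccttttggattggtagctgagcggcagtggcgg
Hspb1, chr12:26432252-26432551, minus strand: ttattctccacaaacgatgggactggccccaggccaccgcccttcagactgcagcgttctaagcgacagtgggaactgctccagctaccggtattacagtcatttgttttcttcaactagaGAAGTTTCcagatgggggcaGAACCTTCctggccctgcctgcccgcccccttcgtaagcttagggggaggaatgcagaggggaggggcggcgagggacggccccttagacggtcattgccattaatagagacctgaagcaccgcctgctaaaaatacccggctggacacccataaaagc
Dnajb1, chr19:41431092-41431391, minus strand: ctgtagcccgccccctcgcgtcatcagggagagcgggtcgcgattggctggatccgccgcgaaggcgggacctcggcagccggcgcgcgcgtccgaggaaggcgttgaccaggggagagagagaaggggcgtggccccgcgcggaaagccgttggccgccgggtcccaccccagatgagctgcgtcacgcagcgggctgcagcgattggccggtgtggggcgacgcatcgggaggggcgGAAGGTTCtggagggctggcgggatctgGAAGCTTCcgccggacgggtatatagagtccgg
Bag3, chr1:192533210-192533509, plus strand: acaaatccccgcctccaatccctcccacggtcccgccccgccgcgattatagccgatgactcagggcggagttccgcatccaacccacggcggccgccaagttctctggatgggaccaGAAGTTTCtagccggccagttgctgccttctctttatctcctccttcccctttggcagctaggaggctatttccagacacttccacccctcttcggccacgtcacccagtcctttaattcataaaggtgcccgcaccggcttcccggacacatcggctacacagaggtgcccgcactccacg

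Against healthy LSECs the chaperones split into groups that moved in opposite directions at the first stages. A gene was called when its unadjusted p was under 0.05 and its fold change above 1.5, the thresholds of the study, in a limma-voom fit over all genes of the groups compared. After 2 weeks of CCl4, 6 of 11 were called, against 74.1% of all genes tested. The 3 that rose were Hsp90ab1, Hspd1 and Hspe1 (35.8% of all genes rose), and the 3 that fell were Hspb1, Dnajb1 and Bag3 (38.3% of all genes fell). At 6 weeks 7 of 11 were called, against 71.2% of all genes, namely the same 6 plus a rise of Hsph1 (4 up and 3 down, against 35.8% and 35.4% of all genes). In cirrhosis, 6 of 11 were called, against 54.5% of all genes. Hspa8, Hsp90aa1, Hsph1, Hspd1 and Hspe1 rose, the last with an adjusted p of 0.05, and Hsf1 fell (28.8% of all genes rose and 25.7% fell), while Hspb1, Dnajb1 and Bag3 were not called. The share of members called was below that of all genes at the first stages and equal to it in cirrhosis, so the counts do not set the chaperones apart. The 3 comparisons share the 6 healthy libraries. The median log2 fold change of the 11 genes was 0.47 in acute, 0.46 in fibrosis and 0.94 in cirrhosis, beside -0.09, -0.03 and 0.07 over all genes. Groups did not overlap for 6, 6 and 1 of the 11 genes at the 3 stages, against 60.1%, 58.7% and 27.3% of all genes. With library size in place of TMM, the median of all genes moved to 0.32, 0.37 and 0.42, and the calls became 6 up and 3 down in acute, 6 up and 2 down in fibrosis and 6 up and 0 down in cirrhosis.

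**Figure D1:**
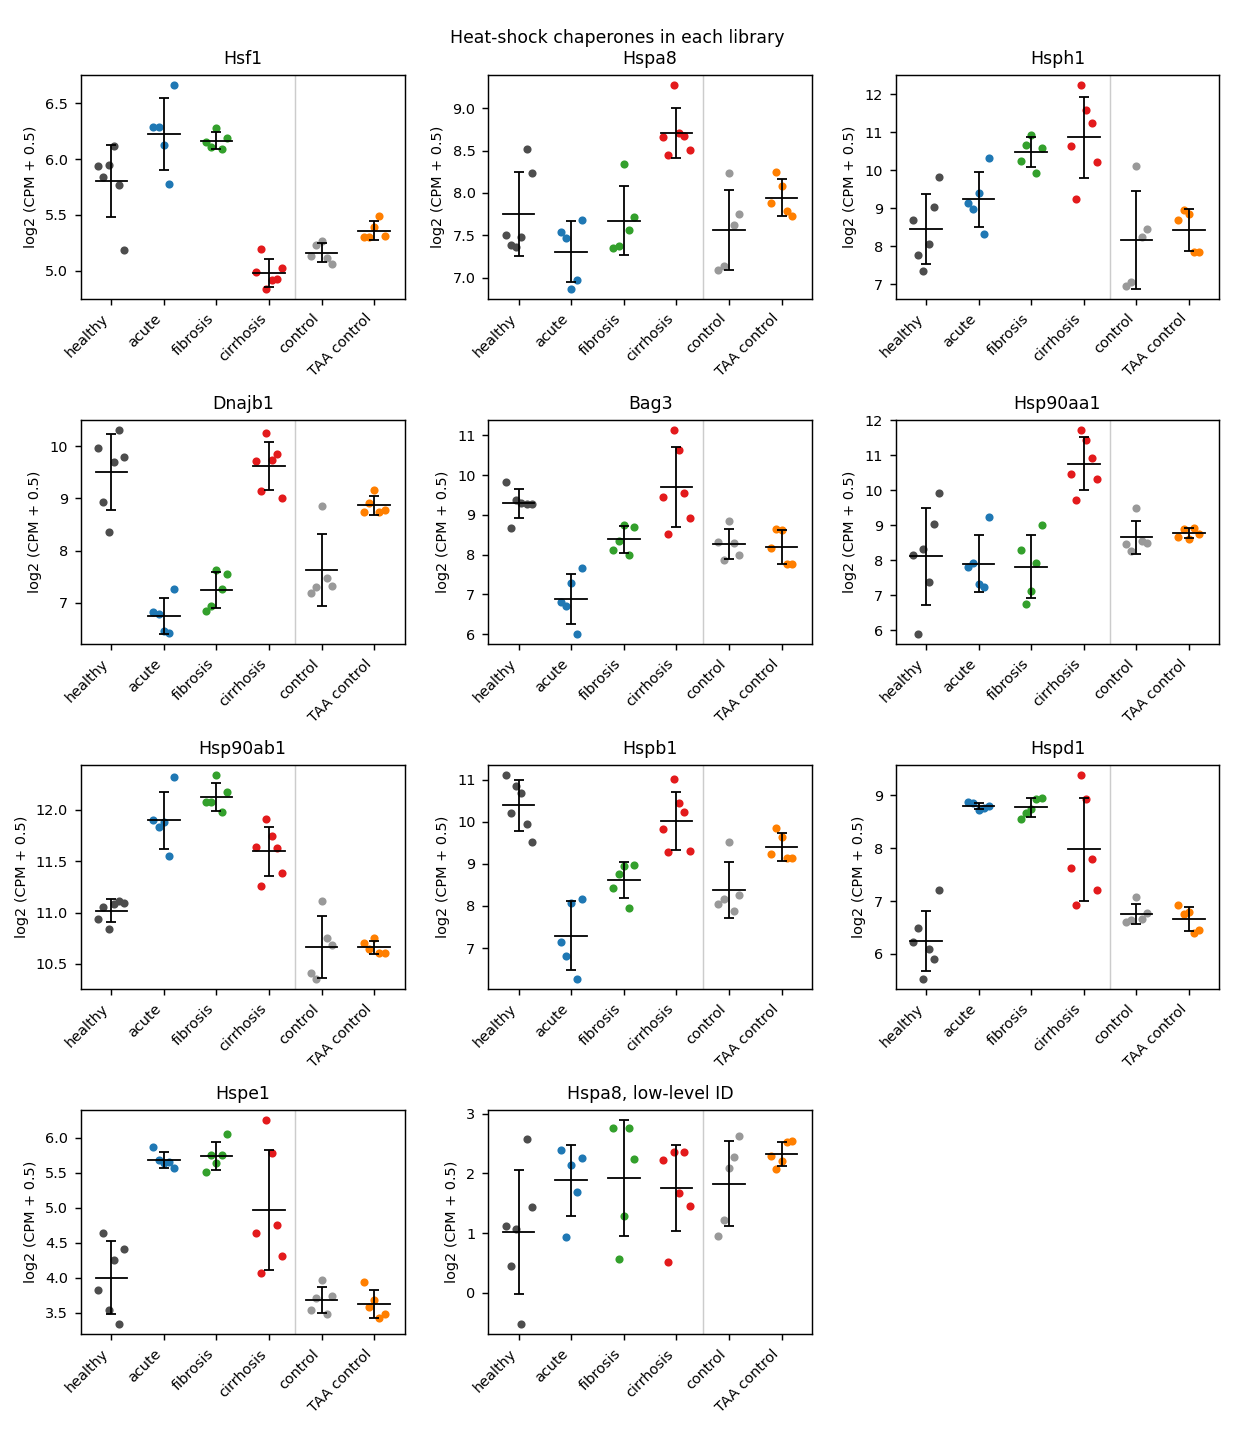
Level of each chaperone in each library, as log2 of CPM plus 0.5 (vertical axis, a different range in each panel), by group (horizontal axis). Each point is a library, the bar is the group mean and the whisker 1 SD, and the grey line parts the CCl4 from the TAA libraries, which were scaled separately. Dnajb1, Hspb1 and Bag3 sit lowest in the acute libraries, Hspd1 and Hspe1 lowest in the healthy libraries of the CCl4 experiment, and Hsf1 lowest in cirrhosis.

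**Figure D2:**
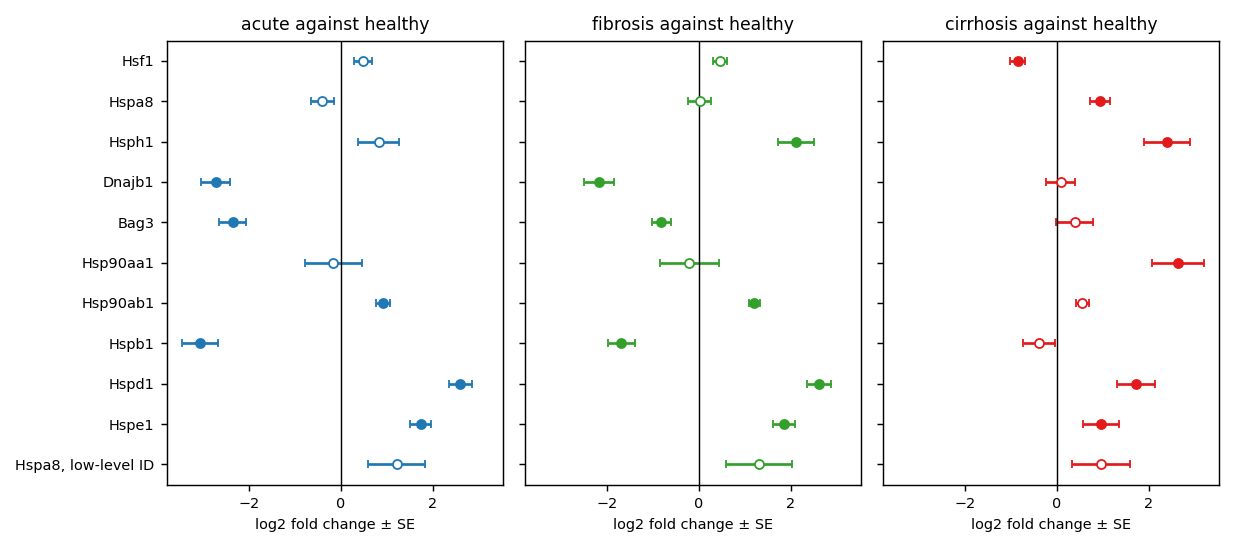
Log2 fold change against healthy (horizontal axis) with its standard error for each chaperone (vertical axis) at 3 stages of the CCl4 experiment. Filled points passed the call thresholds and open points did not. Hspb1 stood at -3.07 in acute, -1.69 in fibrosis and -0.4 in cirrhosis, and Hsp90aa1 at -0.17, -0.21 and 2.63.

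Dnajb1, the J-domain partner that loads clients on HSP70, was among the members that fell furthest. Its healthy libraries ranged from 327 to 1270 CPM with a median of 858. The acute libraries were at 112, 110, 87.3, 84.8 and 152 CPM, and the fibrosis libraries at 115, 122, 198, 152 and 186 CPM. Every acute and fibrosis library was below every healthy one. The log2 fold change was -2.73 (SE 0.323, n = 5 and 6, adjusted p = 8.79e-06 in the limma-voom fit) in acute and -2.18 (SE 0.327, n = 5 and 6, adjusted p = 7.45e-05 in the same kind of fit) in fibrosis. Cirrhosis libraries, from 514 to 1220 CPM with a median of 849, lay within the healthy range (log2 fold change 0.08, SE 0.319, not called), and they lay above all fibrosis libraries by 2.32 on the log2 scale (SE 0.226). The rise of 0.6 from acute to fibrosis passed the threshold of 1.5-fold narrowly, and it was no longer called without acute replicate 3 or 4 or without fibrosis replicate 15 or 17 (0.5 to 0.53), with library size (0.54), with no filter on low counts (0.58) or in one fit over the 4 CCl4 groups (0.52).

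Hspb1, the small heat-shock protein, followed the same course. Healthy libraries ranged from 734 to 2220 CPM with a median of 1420. Acute libraries were at 142, 112, 267, 76.5 and 288 CPM, and fibrosis libraries at 346, 432, 493, 248 and 502 CPM. Both sets lay below the lowest healthy library, with log2 fold changes of -3.07 (SE 0.383) and -1.69 (SE 0.293). Fibrosis was above acute by 1.42 (SE 0.361), and cirrhosis, at 624 to 2070 CPM with a median of 1060, was above fibrosis by 1.35 (SE 0.308) with no overlap. Its difference from healthy was -0.4 (SE 0.346) and was not called, but it was called at -0.75 without cirrhosis replicates 3 and 4 (adjusted p = 0.0707).

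Bag3, the exchange factor that links HSP70 to autophagy, also stepped down and back. Healthy libraries lay between 408 and 910 CPM with a median of 625. Acute libraries were at 111, 104, 155, 63.9 and 203 CPM, all below healthy (log2 fold change -2.36, SE 0.287). Fibrosis libraries, at 278, 326, 424, 255 and 417 CPM, lay above every acute library (1.6, SE 0.279) and reached into the healthy range. Their fall of -0.82 (SE 0.212) was called with TMM but stood at -0.42, not called, with library size. Cirrhosis spread from 363 to 2250 CPM with a median of 723, and its difference from healthy was 0.38 (SE 0.394), or -0.21 without replicates 3 and 4, and was not called in either fit.

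The immediate-early genes were lower at the stages of these falls, and most were lower in cirrhosis too, where their sum was lower by less. All 14 were lower in acute and in fibrosis than in healthy LSECs. In cirrhosis, where Dnajb1, Hspb1 and Bag3 were not called, 9 of 14 were lower. Over all genes, 38.3%, 35.4% and 25.7% fell at the 3 stages. The median of the immediate-early sum was 61300 CPM in healthy, 1950 in acute, 2690 in fibrosis and 30000 in cirrhosis libraries. Hepatocyte markers were lower as well, 8 of 8 in acute and 6 of 8 in fibrosis, with summed levels of 1300 to 28500 CPM in healthy, 144 to 932 in acute and 1290 to 5100 in fibrosis libraries, and 8 of 8 macrophage markers were lower at both stages. LSEC markers were lower too, 7 of 9 in acute and 8 of 9 in fibrosis, but not all parted from healthy. Cdh5 was at 766 to 1760 CPM in healthy, 1330 to 2140 in acute and 870 to 1190 in fibrosis libraries. Lyve1 was at 501 to 2290, 687 to 1160 and 520 to 694 CPM in the same groups. Of 8 stellate cell and fibroblast markers tested, 1 was higher and 5 were lower in acute and 4 were higher and 3 lower in fibrosis. The summed level of this list was above healthy at both stages (1320 to 2120 and 1280 to 1710 CPM, against 280 to 785). Most of that sum was a single gene, Reln, at 1310 to 2110 CPM in acute and 1150 to 1540 in fibrosis, against 117 to 214 in healthy. The sum therefore does not stand for the list as a whole. The part of these lists in the falls of the chaperones was not tested.

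The mitochondrial pair took the opposite course. Hspd1 stood at 45.6 to 147 CPM in healthy libraries, with a median of 71.3. Acute libraries were at 466, 462, 422, 435 and 442 CPM, and fibrosis libraries at 374, 409, 429, 491 and 495 CPM. No library of either stage reached down to the healthy range, and the acute libraries agreed within a CV of 4.13%. The log2 fold changes were 2.6 (SE 0.255, n = 5 and 6, limma-voom adjusted p = 1.84e-06) and 2.62 (SE 0.26, n = 5 and 6, limma-voom adjusted p = 2.42e-06), that is, 6.05-fold and 6.16-fold. Cirrhosis libraries were spread from 121 to 669 CPM with a median of 209, and 2 of 6, replicates 3 and 4 at 669 and 490 CPM, were above every acute library. Hspd1 remained called against healthy in cirrhosis at 1.71 (SE 0.412), and at 1.12 without cirrhosis replicates 3 and 4. Against acute LSECs the cirrhosis level was -0.86 (SE 0.39) with an adjusted p of 0.0588, and it was not called under edgeR (-0.57) or DESeq2 (-0.52). Without replicates 3 and 4 the difference from acute was -1.44 and that from fibrosis -1.41, called in both comparisons, while the fall from fibrosis was not called with all 6 libraries (-0.86, SE 0.403).

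Hspe1, the lid, followed Hspd1. Healthy libraries held 9.62 to 24.6 CPM with a median of 16.1, acute libraries 58.1, 51.1, 49.2, 50.1 and 47.1 CPM, and fibrosis libraries 45.4, 53.4, 49.5, 53.4 and 65.9 CPM. The groups did not overlap, with log2 fold changes of 1.74 (SE 0.228) and 1.85 (SE 0.236). Cirrhosis ranged from 16.3 to 75.8 CPM with a median of 25.5. Its rise of 0.95 over healthy (SE 0.388, adjusted p = 0.05) was not called without cirrhosis replicate 3 or 4 or without healthy replicate 1, 3 or 5 (0.69 to 0.91), and it stood at 0.42 without both of those cirrhosis libraries. Its fall of -0.85 from fibrosis (SE 0.353) was not called under edgeR (-0.62) or DESeq2 (-0.6), nor without any one of cirrhosis replicates 1, 2, 5 and 6 and fibrosis replicates 13, 16 and 17, and its fall of -0.77 from acute did not pass adjustment (adjusted p = 0.0507). Hspe1 counts were fractional in 32 of 32 libraries, as happens when reads are shared with similar sequences, so its level is uncertain, while Hspd1 counts were whole in every library.

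Across the 22 CCl4 libraries the gene of highest correlation with Hspd1, among 8638 genes, was Hspe1, and the reverse held as well (Pearson r = 0.966, a description over libraries that share their groups). The ratio of the pair still differed between healthy and the other CCl4 groups. As lengths were not used, only differences of this CPM ratio between groups are read, not its size. The ratio of Hspd1 to Hspe1 was 3.58 to 6.92 in healthy, 7.96 to 9.3 in acute, 7.46 to 9.11 in fibrosis and 7.21 to 8.86 in cirrhosis libraries. No healthy library reached the lowest of the other CCl4 groups. The log2 ratio was higher than in healthy by 0.88 in acute (exact two-sided permutation test, p = 0.00433, adjusted p = 0.0182 over 21 tests), by 0.79 in fibrosis (exact permutation p = 0.00433, adjusted p = 0.0182) and by 0.77 in cirrhosis (exact permutation p = 0.00216, the smallest this design can give, adjusted p = 0.0152). A ratio within a library does not depend on scaling, but it carries the split of shared Hspe1 reads. In the TAA experiment the ratio was 7.66 to 9.02 in libraries labelled control and 7.81 to 8.98 in those labelled TAA control. Both TAA groups thus lay above every healthy library, and the low ratio was seen in the healthy libraries of the CCl4 experiment alone.

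**Figure D3:**
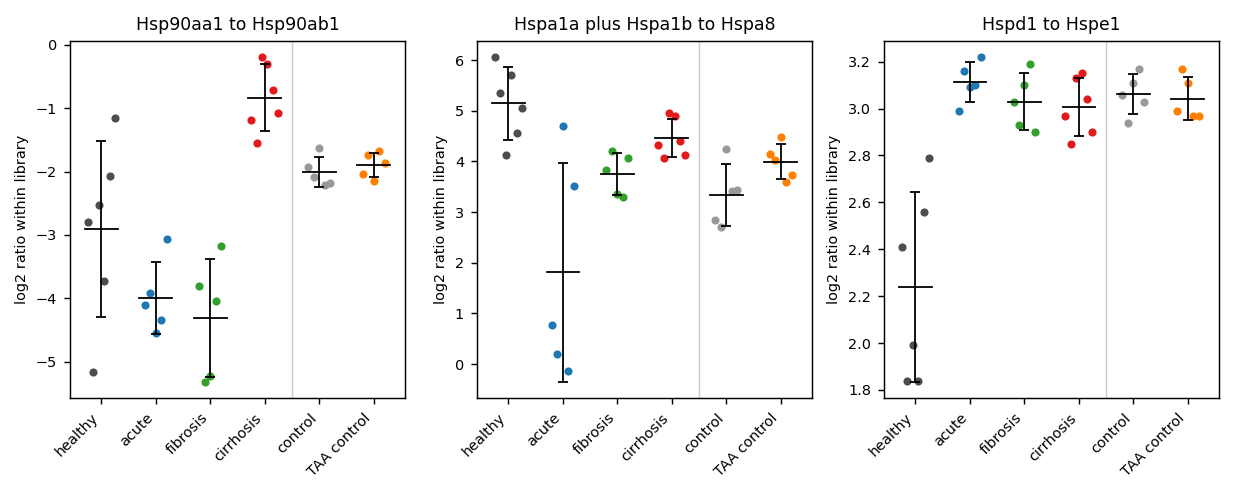
Log2 ratios of related chaperones within each library (vertical axis) by group (horizontal axis). Points are libraries, bars group means and whiskers 1 SD. The Hspd1 to Hspe1 ratio is lowest in the 6 healthy libraries, and the Hsp90aa1 to Hsp90ab1 ratio is highest in cirrhosis.

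The 2 cytosolic HSP90 genes were called at different stages. Hsp90ab1, the constitutive form, was even in healthy libraries (1830 to 2210 CPM, median 2150). Acute libraries held 3837, 3652, 3764, 3005 and 5118 CPM and fibrosis libraries 4313, 4318, 5183, 4033 and 4630 CPM, all above healthy (log2 fold changes 0.92, SE 0.152, and 1.2, SE 0.116). Cirrhosis, at 2460 to 3860 CPM with a median of 3180, also lay above every healthy library, yet its difference of 0.55 (SE 0.137, 1.46-fold) missed the fold threshold, and it was called without cirrhosis replicate 2 (0.6). Cirrhosis lay below every fibrosis library (-0.59, SE 0.126), a difference at the edge of the fold threshold that was not called under edgeR (-0.58) or DESeq2 (-0.56), nor without cirrhosis replicate 2 or 6 or fibrosis replicate 15.

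Hsp90aa1, the inducible form, was the most uneven member in healthy LSECs apart from the low-level Hspa8 entry, from 59 to 978 CPM with a median of 299 (a 16.6-fold range). Acute libraries were at 222, 243, 160, 148 and 607 CPM and fibrosis libraries at 310, 108, 139, 244 and 509 CPM, within the healthy range (log2 fold changes -0.17, SE 0.616, and -0.21, SE 0.636, not called). Cirrhosis libraries held 838 to 3390 CPM with a median of 1680. The lowest cirrhosis library was above every acute and fibrosis library and above all healthy libraries but replicate 6. The rise over healthy was 2.63 on the log2 scale (SE 0.571, n = 6 and 6, limma-voom adjusted p = 0.00207), over fibrosis 2.9 (SE 0.444) and over acute 2.82 (SE 0.407). Without cirrhosis replicates 3 and 4 the rise over healthy was 2.22 and was still called. The ratio of Hsp90aa1 to Hsp90ab1 had a median of 0.158 in healthy, 0.0579 in acute, 0.0605 in fibrosis and 0.54 in cirrhosis. The log2 ratio in acute and in fibrosis overlapped that in healthy, with differences of -1.09 (exact permutation p = 0.136, adjusted p = 0.182) and -1.41 (exact permutation p = 0.0887, adjusted p = 0.143), neither passing the test. Its log2 value was higher in cirrhosis than in healthy by 2.08 (exact permutation p = 0.00649, adjusted p = 0.0195), than in fibrosis by 3.48 and than in acute by 3.16 (exact permutation p = 0.00216 for both, adjusted p = 0.0152). Both genes had fractional counts in nearly all libraries, 31 of 32 for Hsp90aa1 and 32 of 32 for Hsp90ab1, so part of their reads was split between similar sequences.

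Hspa8, the constitutive cytosolic HSP70, was called against healthy in cirrhosis and not at the other stages. Its main entry (ENSRNOG00000034066) ranged from 164 to 366 CPM in healthy libraries, with a median of 180. Acute libraries held 185, 177, 116, 125 and 204 CPM and fibrosis libraries 162, 165, 325, 189 and 210 CPM, overlapping healthy (log2 fold changes -0.41, SE 0.251, and 0.01, SE 0.26). Cirrhosis held 349 to 620 CPM with a median of 406, above every acute and fibrosis library (1.37, SE 0.175, and 0.98, SE 0.195) and above all healthy libraries but replicate 5. Its rise over healthy was 0.94 (SE 0.221, n = 6 and 6, limma-voom adjusted p = 0.00338). The other entry (ENSRNOG00000032585), at 0.197 to 6.31 CPM in the CCl4 libraries, was called in no comparison with all libraries and TMM. It was called higher than healthy with library size in acute (1.65) and fibrosis (1.71), with the replicate block in acute (1.77), and at each of the 3 stages when single libraries were left out, healthy replicate 5 each time (1.6 in acute, 1.69 in fibrosis and 1.35 in cirrhosis), acute replicate 2 (1.51), fibrosis replicate 13 (1.73) or cirrhosis replicate 2 (1.29). In the TAA experiment it was called without control replicate 5 (0.81). Counts of both were fractional in 32 of 32 libraries, and the gene most like the main entry across libraries was Hsc70-ps2 (r = 0.943), named as a pseudogene of the HSP70 cognate, so the split of reads between copies is uncertain.

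Hsph1, the HSP110 that lets HSP70 exchange its nucleotide, was called higher in fibrosis and in cirrhosis. Healthy libraries ranged from 163 to 914 CPM with a median of 340. Acute libraries held 562, 504, 673, 323 and 1285 CPM (log2 fold change 0.82, SE 0.451, not called, though it was called without healthy replicate 6 at 1.18 or acute replicate 4 at 1.06). Fibrosis libraries held 1212, 1640, 1962, 982 and 1548 CPM, all above healthy (2.11, SE 0.4) and above acute by 1.34 (SE 0.324) with overlap. Cirrhosis ranged 8.03-fold, from 608 to 4880 CPM with a median of 2020, and stood 2.39 above healthy (SE 0.5, n = 6 and 6, limma-voom adjusted p = 0.00169). Cirrhosis and fibrosis were not separated (0.33, SE 0.443, or -0.16 without replicates 3 and 4).

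Hsf1 was called lower in cirrhosis and at neither other stage. Healthy libraries held 35.9 to 68.9 CPM with a median of 59, acute libraries 77.6, 77.5, 69.6, 54.2 and 101 CPM, and fibrosis libraries 70.9, 68.4, 77.4, 67.5 and 72.3 CPM. The differences from healthy, 0.47 (SE 0.196) and 0.46 (SE 0.157), fell short of the fold threshold with TMM and passed it with library size (0.88 and 0.85). The acute difference was also called, at 0.6, without healthy replicate 4 or acute replicate 4. Cirrhosis libraries held 28.1 to 36.1 CPM with a median of 30.5, below every acute and fibrosis library and below every healthy library but replicate 6. The fall from healthy was -0.86 (SE 0.165, n = 6 and 6, limma-voom adjusted p = 0.000995), or -0.51, under the fold threshold, with library size. The falls from fibrosis (-1.26, SE 0.0687) and from acute (-1.3, SE 0.135) were larger. In cirrhosis the transcript of the factor was low in the libraries in which Hsp90aa1, Hsph1 and Hspa8 were high.

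Markers of other cell types moved with the changes in cirrhosis. Of the stellate cell and fibroblast markers 7 of 9 were higher than in healthy and 0 lower, with summed levels of 280 to 785 CPM in healthy and 622 to 2010 in cirrhosis libraries. Of the cholangiocyte markers 3 of 5 were higher (1.92 to 26.5 CPM in healthy, 7.23 to 33.4 in cirrhosis), and 4 of 8 hepatocyte markers were lower (3000 to 15100 CPM in cirrhosis), with overlap of the summed levels in each list. Median Krt19 and Krt7 did not rise, at 3.36 and 1.64 CPM in healthy and 3.17 and 1.08 in cirrhosis. The lymphocyte list had 2 of 6 higher and 2 lower, and the neutrophil list 2 higher and 1 lower of 3 tested. Over all genes 28.8% rose and 25.7% fell. Of the LSEC markers 1 of 9 was higher and 2 were lower, and of the macrophage markers 1 of 8 was higher. Their part in the changes of the chaperones was not tested.

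Between the treated stages, 4 of 11 members rose from acute to fibrosis, Hsph1, Hspb1, Bag3 and, under some settings only, Dnajb1, and 0 fell, against 14.3% and 1.39% of all genes in these directions and 15.7% in all. From fibrosis to cirrhosis 8 of 11 were called (64.2% of all genes), 5 up and 3 down (34.5% and 29.7% of all genes). From acute to cirrhosis 9 of 11 were called (69.7% of all genes), 6 up and 3 down (37.8% and 31.9% of all genes), or 6 up and 1 down with DESeq2 size factors, where Hspd1 and Hspe1 were not called. Groups did not overlap for 1 of the 11 genes between fibrosis and acute (18.7% of all genes), 6 between cirrhosis and fibrosis (62.9%) and 6 between cirrhosis and acute (65.5%).

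Within a group, the same libraries stood high or low in many members. In cirrhosis, replicate 3 was highest in 9 of 11 members and replicate 4 among the 2 highest in 8, while replicate 2 was lowest in 9. For Hsph1 the order was 1606, 608, 4882, 3073, 2425 and 1192 CPM in replicates 1 to 6, and for Bag3 695, 363, 2249, 1584, 751 and 480 CPM. Hsf1 went the other way, with 28.1 CPM in replicate 3, the lowest of the group, and 36.1 CPM in replicate 2, the highest. The immediate-early sum had another order, at 37500, 51600, 31600, 26000, 28300 and 23100 CPM in replicates 1 to 6. In acute LSECs replicate 8 was highest in 8 of 11 members and replicate 4 lowest in 7, with immediate-early sums of 3200 and 1530 CPM, the highest and lowest of that group.

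**Figure D4:**
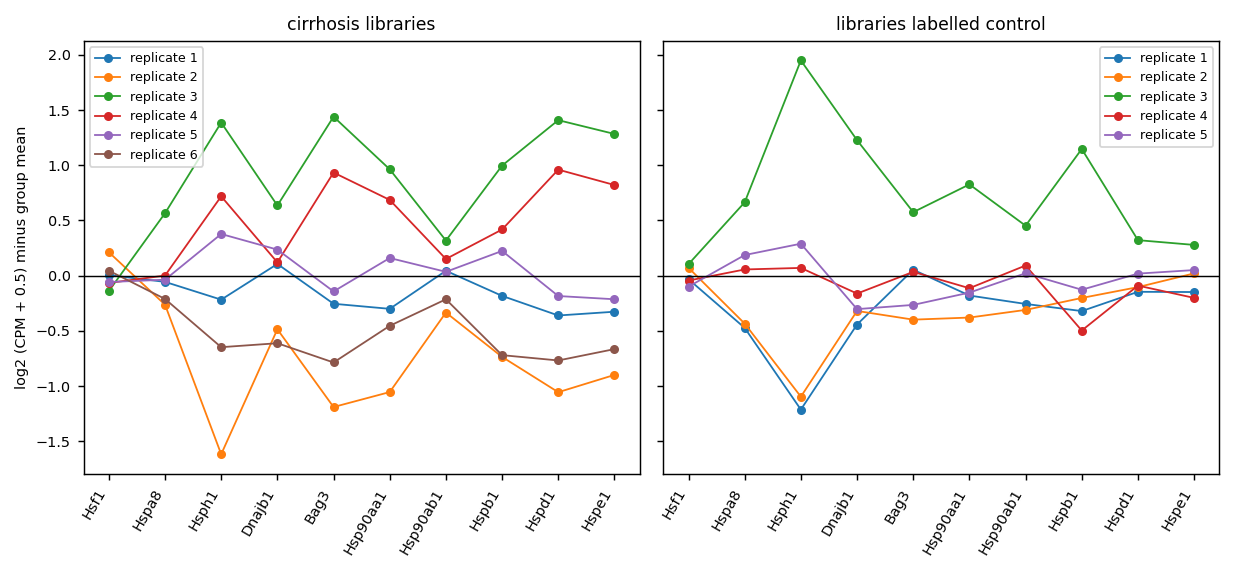
Deviation of each library from its group mean, in log2 of CPM plus 0.5 (vertical axis), for each chaperone (horizontal axis), in cirrhosis (left) and in the libraries labelled control of the TAA experiment (right). Lines join the values of a library. Cirrhosis replicate 3 lies above the mean for every gene drawn but Hsf1, replicate 2 lies below it for every gene drawn but Hsf1, and control replicate 3 lies above the mean for every gene drawn.

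Of the chaperone system around these members, the strongly inducible HSP70 gene Hspa1a fell with Dnajb1 in acute and in fibrosis. It stood at 7830, 4220, 1990, 6300, 5840 and 6790 CPM in healthy libraries and at 61.7, 36.9, 625, 25.1 and 489 CPM in acute libraries, a log2 difference of -5.46 (SE 0.822). In fibrosis it stood at 368, 251, 204, 188 and 805 CPM (-3.94, SE 0.426). Cirrhosis libraries held 5480, 3960, 12800, 8400, 5800 and 4240 CPM of Hspa1a, overlapping healthy. Hspa1b was at 264, 168, 2490, 90.4 and 1910 CPM in acute, so replicates 3 and 8 stood apart, and at 2050, 2850, 3150, 1720 and 2800 CPM in fibrosis, within the healthy range of its 6 libraries. Hspa1a and Hspa1b are nearly identical and reads can be split between them wrongly, so single values are uncertain and their sum was set against Hspa8. This CPM ratio, again without gene lengths, had a median of 36.8 in healthy, 1.71 in acute, 14.3 in fibrosis and 20.7 in cirrhosis. The acute libraries were split, at 1.71, 1.15, 25.7, 0.906 and 11.5. Acute replicate 3, at 25.7, was inside the healthy range of 17.5 to 66.5. The log2 ratio was lower than in healthy by 3.34 in acute (difference -3.34, exact permutation p = 0.00649, adjusted p = 0.0195) and by 1.39 in fibrosis (difference -1.39, exact permutation p = 0.00866, adjusted p = 0.0227). The acute call was lost (adjusted p = 0.05) without healthy replicate 1, 4 or 6. In cirrhosis the log2 ratio overlapped that in healthy and did not pass the test (difference -0.68, exact permutation p = 0.0671, adjusted p = 0.125). The ratio also carries the split of shared Hspa8 reads, as counts of both Hspa8 entries were fractional in 32 of 32 libraries.

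The wider list of 60 chaperone and co-chaperone genes, 57 of them tested, moved in both directions. In acute 29 rose and 18 fell, beside 35.8% and 38.3% of all genes. In fibrosis 29 rose and 16 fell (35.8% and 35.4% of all genes), and in cirrhosis 24 rose and 15 fell (28.8% and 25.7% of all genes). With 74.1%, 71.2% and 54.5% of all genes called in either direction at these stages, the counts of the lists that follow are descriptions and set no list apart. The cytosolic chaperonin, the ring that folds actin and tubulin, was uniform, with 8 of 8 subunits higher in acute and in fibrosis (median log2 fold change 1.93 and 1.94) and 4 of 8 in cirrhosis (0.53), and all 8 were lower in cirrhosis than in fibrosis and in acute. Its subunit Cct6a went from 45.8 ± 9.69 CPM in healthy (SD, n = 6) to 461 ± 19.6 in acute (SD, n = 5), and Cct8 from 53.5 ± 15.8 to 429 ± 28.4. Hspa9, the mitochondrial HSP70, rose from 132 ± 38.6 to 1080 ± 51.7 CPM, beside Hspd1. Of 11 HSP90 and HSP70 co-chaperones 8 rose and 2 fell in acute, and of 10 HSP70 and HSP110 relatives 3 rose and 7 fell, among the latter Hspa12b (65.5 ± 12.3 to 7.09 ± 1.47 CPM).

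In fibrosis the rises led by size were those of Cryab, a small heat-shock protein of the lens and muscle (2.72 ± 1.18 to 27.1 ± 6.42 CPM), Cct6a (log2 fold change 3.14) and Hsf2, a second heat-shock factor (8.72 ± 4.11 to 57.6 ± 5.34 CPM). The falls were led by Hspa1a, Hspa12b (-3.59) and the J-domain gene Dnajb5 (204 ± 71.9 to 29.5 ± 0.981 CPM). The size of the Hspa1a fall is uncertain, as it carries the split of reads with Hspa1b, which stayed within its healthy range in fibrosis. In cirrhosis the rises were led by Dnaja1, a J-domain partner of HSP70 (508 ± 311 to 1960 ± 738 CPM), Hsp90b1, the HSP90 of the endoplasmic reticulum (388 ± 183 to 1480 ± 419 CPM), and Chordc1, an HSP90 co-chaperone (17.8 ± 12.8 to 51.9 ± 21.8 CPM). The falls were led by Hspbp1, an HSP70 exchange factor (136 ± 49.7 to 40.3 ± 3.22 CPM), Stub1, the ubiquitin ligase that works with HSP70 (141 ± 32.5 to 49.6 ± 4.09 CPM), and Fkbp4, an immunophilin of HSP90 (242 ± 94.1 to 91.3 ± 16.6 CPM). Of the other lists, J-domain proteins had 2 up and 2 down of 8 in acute and 4 up and 2 down in cirrhosis, and BAG and other exchange factors had 4 up and 2 down of 6 in acute and in fibrosis and 0 up and 2 down in cirrhosis. Organelle chaperones had 3 up and 2 down of 8 in acute and 3 up and 4 down in cirrhosis. Of 6 further small heat-shock protein genes 3 were tested, with 0 up and 2 down in acute, 2 up and 1 down in fibrosis and 1 up and 1 down in cirrhosis, and of 3 heat-shock factors and regulators 1 rose (Hsf2) and 1 fell (Hsf4) at each of these stages.

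**Figure D5:**
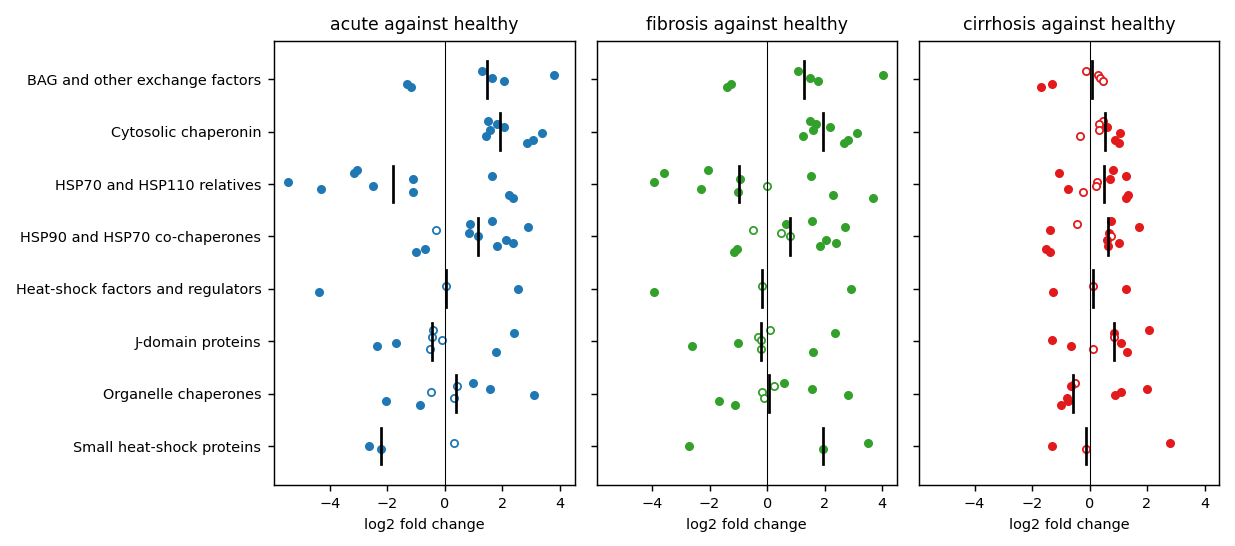
Log2 fold change against healthy (horizontal axis) of the wider chaperone genes by list (vertical axis) at 3 stages. Points are genes, filled where called, and bars are list medians. The 8 chaperonin subunits lie to the right of 0 in acute and fibrosis.

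By likeness of profile across the 22 CCl4 libraries, the gene most like Hspb1 was Arid5a (r = 0.95), and that most like Bag3 was Hspb1 (r = 0.932). For Hsp90aa1 it was Dnaja1 (0.936), for Hsp90ab1 Cdr2 (0.939), for Hsph1 Polk (0.918) and for Hsf1 Tomm34 (0.981). These values describe libraries that share 4 groups and carry no test.

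In the TAA experiment 2 of 11 members were called, against 29.4% of all genes, and both were higher in libraries labelled TAA control (13.5% of all genes were). Dnajb1 stood at 145, 158, 463, 176 and 160 CPM in libraries labelled control and at 428, 482, 575, 424 and 440 CPM in those labelled TAA control, a log2 difference of 1.23 (SE 0.289, n = 5 and 5, limma-voom adjusted p = 0.00481). Control replicate 3 was inside the other group, and the other 4 were below it. Hspb1 stood at 266, 289, 736, 235 and 304 CPM and at 599, 930, 799, 562 and 569 CPM (1.02, SE 0.289, adjusted p = 0.0133), again with control replicate 3 inside the other group. Without that library the differences were 1.54 for Dnajb1 and 1.3 for Hspb1. The remaining members differed by -0.09 to 0.55 and were not called, Hsp90ab1 by 0 (SE 0.136) and Hspd1 by -0.09 (SE 0.121). Hsf1 was at 34.5, 37.1, 37.9, 34.2 and 32.9 CPM and at 39, 38.9, 41.6, 44.5 and 39.1 CPM, without overlap (the only such member, against 35.1% of all genes), and its difference of 0.2 (SE 0.0649) was under the fold threshold. Control replicate 3 was highest in 10 of 11 members, with 1114 CPM of Hsph1 beside 124 to 352 in the others. Replicates 14 and 15 of the TAA control group differed much less than other pairs (chi-square per degree of freedom 2.96, against 23.6 or more for the closest pair of each other group), and averaging them left both calls in place (Dnajb1 1.26, Hspb1 1.08). Of the immediate-early genes 13 of 14 were higher in TAA control libraries, as were Dnajb1 and Hspb1, while Bag3 was not called (-0.08, SE 0.222). Within the control group, the immediate-early sums of replicates 1 to 5 were 25300, 29700, 28900, 14800 and 14300 CPM. Markers of other cells moved as well, with 7 of 9 stellate cell and fibroblast markers lower in TAA control libraries (summed 2050 to 5260 CPM in control and 345 to 542 in TAA control), 5 of 8 hepatocyte markers lower (2210 to 5390 and 653 to 1510 CPM) and 4 of 4 cholangiocyte markers tested lower (4.65 to 8.63 and 1.56 to 3.2 CPM), none of the 3 sums overlapping. Macrophage markers were higher in 3 of 8 and LSEC markers in 2 of 9. The part of these lists in the result was not tested. Of the wider list, 3 genes were higher and 8 lower (13.5% and 15.9% of all genes), with Hspa1a higher by 1.16 (SE 0.445).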

How the data were processed

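RNA of LSECs was measured in 32 libraries, each deposited as a table of expected counts per gene (32623 genes). To make these expected counts, the authors trimmed reads of strand-specific poly(A) libraries with Trim Galore, checked them with FastQC, aligned them with STAR to Rnor_6.0 and estimated counts with RSEM, and limma is named as well (versions not given in the sources used here). RSEM splits reads that fit several copies, so counts of genes with near-identical copies are estimates. Expected counts were rounded, genes with low counts were removed with filterByExpr of edgeR 4.0.16, and each pair of groups was fitted with limma-voom 3.58.1 after TMM scaling in R 4.3.3. Groups follow the submitters' labels. A gene was called at an unadjusted p under 0.05 and a fold change above 1.5, and Benjamini-Hochberg adjusted p-values over all genes tested are given. Levels are CPM, log2 values use CPM plus 0.5, and within-library ratios of 2 genes were compared with exact two-sided permutation tests adjusted over 21 tests. The fits were tested on simulated data in which few genes changed, so that test does not cover scaling where most genes are called. Alternatives were edgeR's quasi-likelihood test, DESeq2 1.42.0, other scalings and filters, other thresholds, a replicate block, one fit over the CCl4 groups, and leaving out libraries. Leaving out cirrhosis replicates 3 and 4 together and averaging TAA control replicates 14 and 15 were chosen after seeing the data. The members, the gene lists, the cell type markers and the rule for naming genes were chosen with earlier results of these data known. By that rule all members, Hspa1a and Hspa1b are named, and from the wider list the 3 called rises and 3 called falls of largest log2 fold change at each stage against healthy, at a mean log2 CPM of at least 3. Hsf4 was named after its values were seen. Depth per library was 25646531 to 46464289 counts, and the member with the fewest counts, the second Hspa8 entry, had 5.03 to 224.29 per library. Heat-shock-element letters were searched in RefSeq promoter windows of GRCr8, whose coordinates were not used for any count. The profile comparison for Dnajb1 is not reported here.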

Additional observations from a re-analysis of the deposited data

Results flagged for a closer look

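Of 84 sets of values tested for a library far from the rest of its group (11 genes and 3 ratios in 6 groups), 5 had one, where chance gives about 4.2 (1 in 20). Control replicate 3 of the TAA experiment was far above the other 4 libraries in 3 of them: Dnajb1 at 463 CPM beside a next value of 176, Hsp90aa1 at 715 CPM beside 372, and Hspb1 at 736 CPM beside 304. Cirrhosis replicate 3 was far above the others in the main Hspa8 entry, at 620 CPM beside 419. Healthy replicate 6 was far below the others in Hsf1, at 35.9 CPM beside 54.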

How the results depend on the processing

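The number of members called stayed within 1.5 times its main value in all 7 comparisons under every alternative run. It was 6 to 9 in acute, 7 to 8 in fibrosis and 5 to 7 in cirrhosis against healthy when no single library was left out, and 6 to 8, 7 to 8 and 5 to 8 when each library was left out in turn. Replicate numbers came from different rats and did not pair the samples (the correlation of same-numbered deviations ran from -0.24 to 0.29, and not every sample correlated best with its own number), so the replicate block was run only as an alternative: it called 8 members in acute, 6 in cirrhosis against healthy and 7 in cirrhosis against acute, and Hspd1 (-0.61) and Hspe1 (-0.47) were not called in the last. The count of the wider list rose without a fold threshold from 7 to 29 in fibrosis against acute and from 11 to 35 in TAA control against control. Log2 fold changes that were not called and changed sign are as follows. Hsp90aa1 in acute was 0.23 with library size and 0.27 with the block, and in fibrosis 0.19 with library size. Hspa8 in fibrosis was -0.02 with edgeR and -0.05 in one fit over 4 groups. Without cirrhosis replicates 3 and 4, Dnajb1 (-0.1) and Bag3 (-0.21) against healthy and Hsph1 against fibrosis (-0.16) turned. In fibrosis against acute, Hsp90aa1 was -0.04 with library size, 0 with DESeq2 size factors and -0.07 in one fit, Hspd1 -0.01 in one fit, and Hsf1 -0.02 with library size and -0.04 in one fit. In TAA control against control, Hsph1 was -0.16 with edgeR and -0.17 with DESeq2, and with replicates 14 and 15 averaged Hsp90ab1 was 0.01 and Bag3 0.03. With each library left out in turn, signs changed within these ranges: Hsp90aa1 -0.62 to 0.28 in acute, -0.66 to 0.1 in fibrosis and -0.29 to 0.34 in fibrosis against acute, Hspa8 -0.15 to 0.16 in fibrosis, Dnajb1 -0.15 to 0.24 in cirrhosis, Hsf1 -0.08 to 0.14 in fibrosis against acute, the second Hspa8 entry -0.14 to 0.57 in fibrosis against acute, -0.73 to 0.07 in cirrhosis against fibrosis and -0.51 to 0.15 in cirrhosis against acute, and, in TAA control against control, Hsp90ab1 -0.09 to 0.11, Hsph1 -0.05 to 0.75, Hspe1 -0.14 to 0 and Bag3 -0.19 to 0.06. Of the within-library ratios, Hspd1 to Hspe1 ran from -0.05 to 0.02 in cirrhosis against fibrosis and from -0.05 to 0.01 in the TAA experiment. Ratio calls changed with single libraries left out for Hspa1a plus Hspa1b to Hspa8, at -4.06 to -2.85 in acute, -0.88 to -0.5 in cirrhosis, 1.46 to 2.66 in fibrosis against acute, 0.6 to 0.83 in cirrhosis against fibrosis, 2.17 to 3.37 in cirrhosis against acute and 0.51 to 0.89 in the TAA experiment, and for Hsp90aa1 to Hsp90ab1 at -1.54 to -0.74 in acute and -1.86 to -1.06 in fibrosis. The cause of these changes was not tested. Among the members, depth limits the second Hspa8 entry most, with 5.03 to 224.29 counts per library.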
